A study of Mus musculus with 137 samples.

Results

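The crypt and the villus of the same duodenum were compared in 5 mice that had drunk 180 ppm hexavalent chromium, Cr(VI), for 90 days and were sampled on day 91. The members were chosen by their labels alone: the 5 crypt libraries and the 5 villus libraries of mice 483, 484, 485, 488 and 490, which are 10 libraries of a series that holds 71 crypt and 66 villus libraries. The series measured transcripts in paraffin sections of the duodenum of wildtype female B6C3F1 mice, a hybrid strain widely used in rodent cancer bioassays, with a targeted sequencing assay (TempO-Seq) in which a pair of detector oligos is ligated on its transcript, amplified and counted. From adjacent cross-sections of each duodenum a pathologist removed one compartment by microdissection, and the tissue that remained was scraped from the slide and lysed. The mice drank freely from water in which sodium dichromate dihydrate supplied the Cr(VI). For comparison, 9 libraries of untreated mice (0 ppm) of day 91 (5 crypts and 4 villi) and 9 libraries of mice given 180 ppm for 7 days and sampled on day 8 (5 crypts and 4 villi) were included in the same model. These mice had the same strain and sex, and in each of those groups 1 mouse gave a crypt library only, so 4 mice contributed a paired difference. Outside this model, mice given 0.1, 1.4, 5, 20 or 60 ppm for 90 days (5 pairs each) served to describe a course over concentrations. They also entered the alternative runs on all day 91 libraries and on all libraries of the series, the latter with the remaining day 8 mice. The question was which genes separated the compartments after 90 days at the highest concentration, and whether this separation differed from that of untreated mice and from that of the early time point.

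The crypt libraries of the 5 mice held between 4457691 and 5667584 counts and the villus libraries between 3030885 and 4574064. The villus total was below the crypt total in 4 of 5 mice, mouse 484 being the exception. Crypt libraries had 17109 to 21666 probes with at least 1 count and villus libraries 15157 to 18947, and the crypt had more in 5 of 5 mice. Untreated libraries of day 91 held 2717447 to 5136000 counts in crypts, overlapping those at 180 ppm, and 1667014 to 2678299 in villi, all below those at 180 ppm. A level of 3 counts, taken as the limit of detection, corresponded to between 0.568 and 1.06 CPM, the unit of level used here, in the 10 libraries. CPM are counts scaled to a common library size after TMM scaling, a trimmed-mean correction for library composition. They compare 1 gene between libraries and not the levels of different genes, since probes differ in efficiency. Where a gene is called the most abundant of a list, it had the highest mean CPM, which depends on its probe as well. Summed CPM of a list likewise weigh its members by their probes, and are compared only between libraries. The reads are PCR copies, so the limit of detection covers counting error only.

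The intestinal epithelium is renewed from the base of the crypt. There, stem cells kept active by Wnt signals divide beside Paneth cells, which fill their granules with lysozyme and alpha-defensins. Their daughters divide in the transit-amplifying zone, stop cycling as they leave the crypt, and mature into absorptive enterocytes that climb the villus and are shed at its tip. Enterocytes carry microvilli studded with digestive enzymes and carriers, package dietary fat into chylomicrons, and metabolise ingested chemicals. Each section also contains smooth muscle, fibroblasts, vessels and immune cells of the mucosa.

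Markers that the study used to tell the compartments apart were looked at first. The study presented them as crypt and villus markers, with earlier work cited for the Paneth cell genes, and examined them in these same samples. They are therefore a check of the labels and not independent evidence. CPM of each mouse are given in the order 483, 484, 485, 488 and 490 throughout, and log2 differences are crypt minus villus with their standard error (SE). Mmp7, the protease that activates alpha-defensins in Paneth cells, was measured at 162, 339, 203, 224 and 276 CPM in the crypts and at 19.8, 51.4, 9.51, 3.68 and 5.64 CPM in the villi. The lowest crypt lay above the highest villus, with a log2 difference of 3.90 ± 0.40 (adjusted p = 1.86e-08). Lyz1, Paneth cell lysozyme, reached 1574, 2543, 1594, 1651 and 2680 CPM in the crypts against 232, 570, 329, 101 and 193 CPM in the villi, a log2 difference of 2.98 ± 0.32 (adjusted p = 4.27e-08).

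The receptor gene Ephb2, a Wnt target that positions cells along the crypt, had crypt values of 102, 138, 63.4, 132 and 141 CPM and villus values of 31.3, 34.6, 38, 19.7 and 26.2 CPM. Its groups did not overlap and the log2 difference was 1.91 ± 0.33 (adjusted p = 8.84e-05). Klf4, a transcription factor of differentiated epithelium that restrains the cell cycle, went the other way, at 26.2, 23.2, 49.2, 18.6 and 27.2 CPM in the crypts and 89.1, 73.6, 81.3, 105 and 64.9 CPM in the villi. Its log2 difference was -1.55 ± 0.31 (adjusted p = 6.71e-04), again without overlap.

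Markers with weaker separation were Pcna, Defa5 and Vil1. Pcna, the sliding clamp of replicating DNA, was at 167, 218, 218, 124 and 230 CPM in the crypts and at 129, 126, 67.6, 67.9 and 99.8 CPM in the villi. It was higher in the crypt in 5 of 5 mice by a log2 difference of 0.97 ± 0.23 (adjusted p = 0.0039), although the ranges overlapped, since the crypt of mouse 488 lay below the villus of mouse 483. Defa5, an alpha-defensin, stood at 7.74 ± 2.78 CPM (SD, n = 5) in crypts and 1.03 ± 1.17 CPM in villi, near the limit of detection, and its log2 difference of 2.77 ± 0.90 (adjusted p = 0.0379) was not called without mouse 484, 485 or 488 (adjusted p = 0.143, 0.132 and 0.119). Vil1, the actin-bundling protein villin of microvilli, was lower in the crypt in 5 of 5 mice (4092 ± 646 against 5539 ± 910 CPM), but its log2 difference of -0.43 ± 0.22 did not pass the test (adjusted p = 0.234). The measured markers thus carried the direction of their labels in every mouse, with Vil1 below the threshold.

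**Figure D1:**
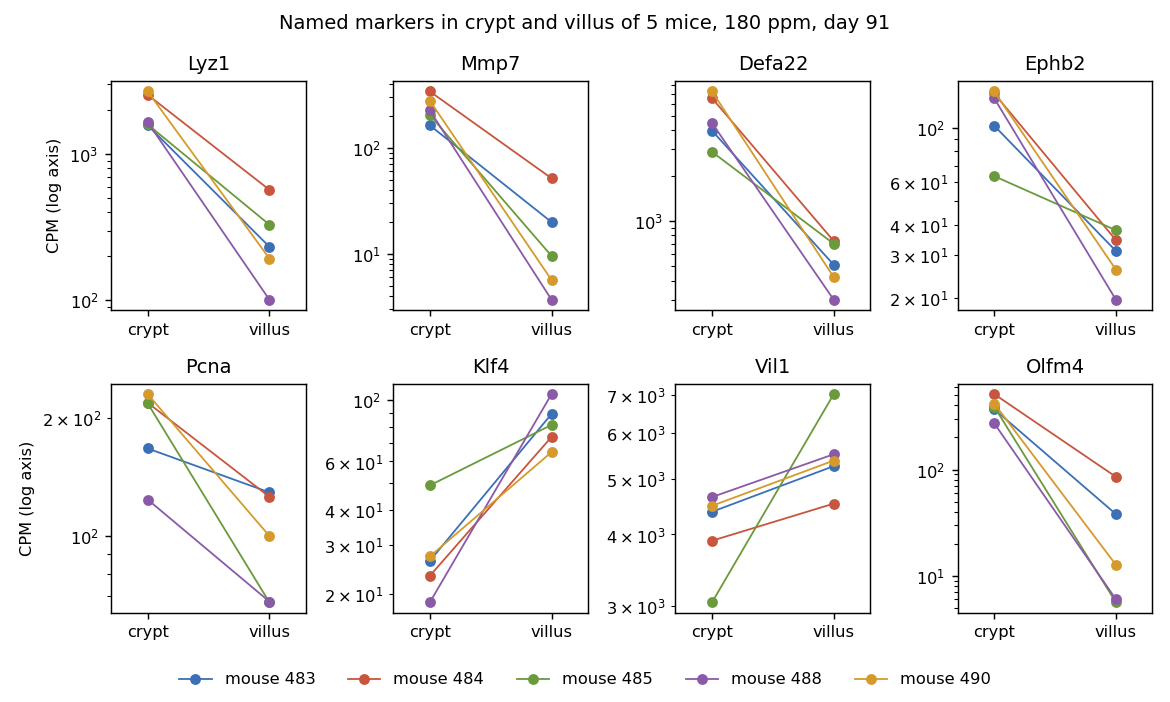
CPM on a log axis of 8 marker genes in the crypt and villus library of each of the 5 mice given 180 ppm for 90 days, with a line joining the compartments of a mouse. Lyz1, Mmp7, Defa22, Ephb2 and Olfm4 lie higher in every crypt than in any villus, Klf4 lies lower, and the lines of Pcna and Vil1 keep 1 direction while their ranges lie close together or overlap.

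Across all genes, 2173 of 13416 tested genes had a probe that differed between crypt and villus at an adjusted p under 0.1 (16.2%), 1346 toward the crypt and 828 toward the villus, with 1 gene counted on both sides through different probes. Counted with 1 probe per gene, 2061 of 13386 genes were called, 1293 with the crypt higher (9.66%) and 768 with the villus higher (5.74%). Of these 2061 genes, 1725 moved the same way in 5 of 5 mice. The CPM ranges of crypt and villus did not overlap in 1561 of the 13386 genes (11.7%). Called differences had a median log2 value of 1.28 on the crypt side and -1.20 on the villus side. A log2 difference of at least 1 was called in 888 genes of the crypt side and 512 of the villus side, and one of at least 3 in 63 and 32 genes.

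The balance of directions depended on the scaling, the filter on low counts, the depth and the mice included. Under TMM the share of called genes higher in the crypt was 48.5% with a mean count of at least 10. It was 50.3% with thinned counts and 49.7% without mouse 488, but 62.2% with no mouse block and 64.5% with the legacy form of the fit. In the main fit with TMM, 61.9% of called genes were higher in the crypt and the median log2 difference of all probes was 0.09. With DESeq2 size factors 50.9% were (1084 against 1044 genes) and the median was -0.01. The median over 1 probe per gene, against which the medians of gene groups below can be read, was 0.10. Among the gene groups and named genes below, the size factors turned the sign of 3 medians, those of the enterocyte transcription factors (0.07 to -0.04), the tuft cell markers (0.04 to -0.07) and the pancreatic acinar markers (0.09 to -0.01), and of no named gene. In such sections, fewer cells of a type and less RNA per cell cannot be told apart.

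**Figure D2:**
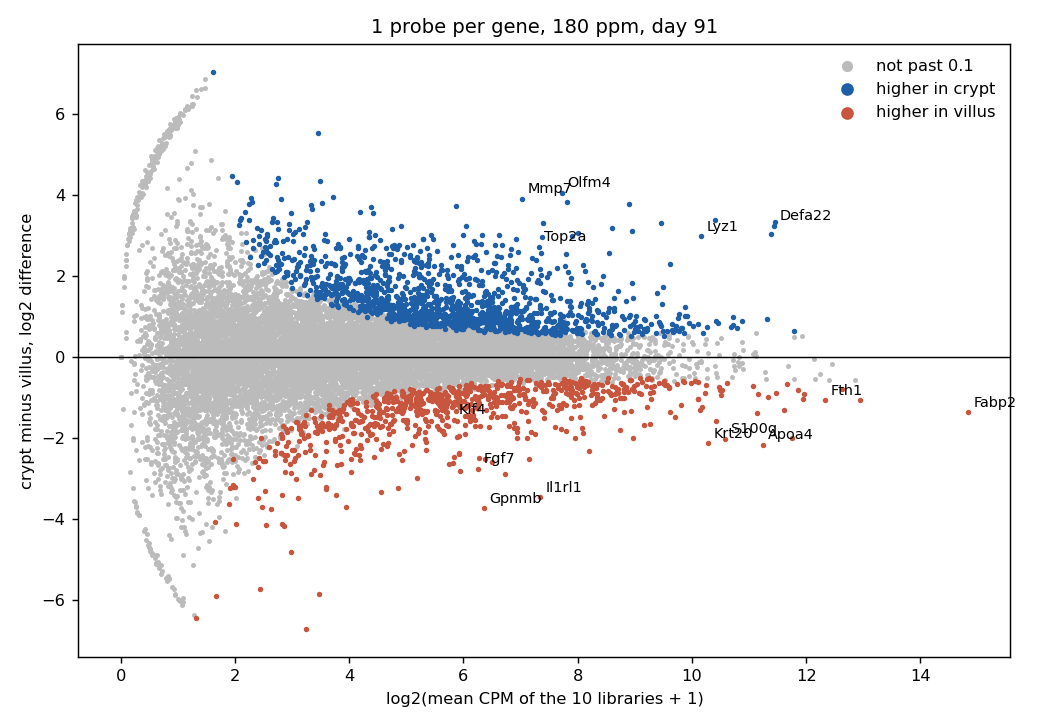
Log2 difference of crypt against villus at 180 ppm and day 91 for 13386 genes, 1 probe per gene, against mean abundance, with called genes coloured by direction and named genes marked. Called genes lie on both sides of 0, 1293 above and 768 below, and the alpha-defensins, Olfm4 and Mmp7 lie farthest above 0 among the abundant genes.

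Paneth cell products had the largest median difference of the groups on the crypt side. Of 12 measured members, 11 were higher in the crypt and none higher in the villus, with a median log2 difference of 3.14. The sum of the list ran from 9186 to 21260 CPM in crypts (median 13390) and from 865 to 2629 CPM in villi (median 1532), without overlap. Defa22 alone gave 3976, 6544, 2875, 4467 and 7247 CPM in the crypts and 510, 734, 705, 299 and 422 CPM in the villi, a log2 difference of 3.23 ± 0.32 (adjusted p = 1.42e-08). Among the 10 genes with the smallest adjusted p on the crypt side were the defensins Defa30 (2432 ± 678 against 260 ± 180 CPM) and Defa23 (692 ± 186 against 81.9 ± 54.6 CPM), and the defensin-like genes AY761184 (887 ± 392 against 67.8 ± 39.2 CPM) and Gm14851 (5115 ± 1677 against 504 ± 145 CPM), with log2 differences of 3.38, 3.19, 3.78 and 3.33. In the whole alpha-defensin family, 13 of 15 genes were higher in the crypt and the median log2 difference was 3.19. Alpha-defensin genes are close copies of each other in a cluster on chromosome 8, so reads of 1 copy counted for another cannot be separated and the member measured is uncertain, and 2 listed symbols shared 1 probe and were counted once.

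Stem cell and Wnt target genes were higher in the crypt for 9 of 17 measured members, none was higher in the villus, and the median log2 difference was 1.04. Olfm4, which encodes a glycoprotein secreted by crypt base cells (chr14:79984081-80023139, plus strand, GRCm38), showed 369, 512, 390, 272 and 417 CPM in the crypts against 38, 85.3, 5.63, 6.02 and 12.7 CPM in the villi. No villus reached the lowest crypt, and the log2 difference was 4.05 ± 0.44 (adjusted p = 5.37e-08). Slc12a2, the sodium-potassium-chloride cotransporter of secreting crypt cells, was at 137.2 ± 26.5 CPM in crypts and 20.1 ± 4.30 CPM in villi (log2 difference 2.78). The others called were Ephb2, Smoc2, Axin2, Myc, Cd44, Prom1 and Znrf3.

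Lgr5, the receptor that marks cycling stem cells, did not share this pattern and was singled out after its values were seen. It was measured at 3.17, 0.956, 1.32, 6.50 and 0.795 CPM in the crypts and at 3.03, 10.6, 9.86, 5.35 and 7.05 CPM in the villi. The lowest crypt values lay close to the limit of detection, the ranges overlapped, and the log2 difference of -1.52 ± 0.84 did not pass the test (adjusted p = 0.299).

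Genes of DNA replication and of mitosis gave the most calls among the lists of the crypt side. Of 40 replication genes 24 were higher in the crypt and none higher in the villus (median log2 difference 1.80). Of 35 mitosis genes 31 were higher in the crypt and none higher in the villus (median 2.45). Within single mice, medians were taken from log2 ratios of CPM with 1 CPM added and not from the fit. They lay between 1.52 and 1.91 for the replication list and between 1.91 and 2.66 for the mitosis list. The background shares for 1 probe per gene are the 9.66% and 5.74% given above.

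Upstream sequences are shown for members of these lists that hold matches to known cell cycle motifs. They were taken from RefSeq (GRCm38.p6), end at the base before the annotated start of the gene, and read 5′ to 3′ on the strand of the gene. Capitals mark matches on either strand to a form of the E2F motif (TTTCCCGC or TTTGGCGC), bound by the E2F factors that switch on replication genes, to the CCAAT box (CCAAT), bound by NF-Y, or to the cell cycle homology region, CHR (TTTGAA), bound by the MuvB complex of cell cycle genes. No motif contains another. Mcm6 and Mcm7 encode subunits of the replicative helicase, Ccnb1 is the cyclin of entry into mitosis, and Top2a untangles sister chromatids. The windows lie at chr1:128359706-128359855 (minus strand), chr5:138171884-138172083 (minus strand), chr13:100786487-100786636 (minus strand) and chr11:99024190-99024389 (minus strand).
Mcm6: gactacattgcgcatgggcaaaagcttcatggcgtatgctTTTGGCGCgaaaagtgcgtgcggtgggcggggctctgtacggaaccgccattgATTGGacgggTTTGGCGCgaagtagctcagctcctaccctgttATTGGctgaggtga
Mcm7: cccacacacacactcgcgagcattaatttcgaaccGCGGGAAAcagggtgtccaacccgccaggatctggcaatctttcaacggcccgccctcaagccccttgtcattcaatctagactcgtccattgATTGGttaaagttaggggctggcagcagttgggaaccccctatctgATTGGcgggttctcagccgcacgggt
Ccnb1: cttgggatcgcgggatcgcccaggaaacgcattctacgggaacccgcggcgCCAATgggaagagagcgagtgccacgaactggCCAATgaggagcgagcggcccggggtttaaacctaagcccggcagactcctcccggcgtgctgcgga
Top2a: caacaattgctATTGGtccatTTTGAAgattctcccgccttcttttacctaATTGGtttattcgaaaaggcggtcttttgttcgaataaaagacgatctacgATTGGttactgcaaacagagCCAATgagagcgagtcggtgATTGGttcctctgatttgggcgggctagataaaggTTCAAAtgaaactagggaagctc

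Mcm6, shown above with 2 E2F matches and 2 CCAAT boxes, was at 204, 296, 174, 258 and 280 CPM in the crypts and at 44.8, 55.5, 63.4, 70.9 and 109 CPM in the villi. All crypts lay above all villi, with a log2 difference of 1.85 ± 0.24 (adjusted p = 1.35e-06). Mcm2, another helicase subunit, was at 125 ± 31.5 against 23.7 ± 4.33 CPM (log2 difference 2.39), and Rrm1, the large subunit of ribonucleotide reductase, which makes deoxynucleotides, at 244 ± 41.0 against 47.7 ± 27.9 CPM (2.43). Mcm7, named here for its sequence and after its values were seen, was at 47.9 ± 8.52 against 7.43 ± 4.65 CPM (2.68). Of the helicase genes Mcm2 to Mcm7, 4 of 6 were called and the median log2 difference was 2.51.

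Top2a, with 5 CCAAT boxes and 2 CHR matches in its printed stretch, had 229, 378, 257, 194 and 314 CPM in the crypts against 60.4, 51.4, 23.9, 35.1 and 38.6 CPM in the villi. The ranges did not overlap, with a log2 difference of 2.71 ± 0.27 (adjusted p = 1.44e-08). Ccnb1, with 2 CCAAT boxes, was at 189 ± 57.3 CPM in crypts and 33.4 ± 10.2 CPM in villi (log2 difference 2.50, adjusted p = 2.89e-08).

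Promoter sequences were found for 10168 of the 13386 tested genes, and their 250 bases before the start were searched. A CCAAT box was held by 79.3% of mitosis promoters (23 of 29) and 65.6% of replication promoters (21 of 32), beside 36.2% of all tested genes, 43.7% of those called higher in the crypt and 32.4% of those called higher in the villus. A pair of CCAAT boxes or more was held by 55.2% of mitosis promoters and 13.0% of all tested genes. E2F matches were held by 18.8% of replication promoters (6 of 32), by none of the 29 mitosis promoters, and by 2.41% of all tested genes. CHR matches were in 31.0% of mitosis promoters, 12.5% of replication promoters, 13.4% and 12.4% of those called higher in the crypt and in the villus, and 11% of all, and the xenobiotic list of the villus side had the largest share, 41.7% (10 of 24). These are descriptions of letters in a fixed window and not of binding.

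Genes with symbols that start with Hist, the family that holds the histones made in S phase to package new DNA, were higher in the crypt for 38 of 43 measured members. Their median log2 difference was 2.13. The set was chosen by symbol alone, so members made outside S phase were not set apart. Hist1h1b, a linker histone, was at 174 ± 47.6 against 21.6 ± 7.33 CPM (log2 difference 3.02), Hist2h3b at 637 ± 139 against 112 ± 47.1 CPM (2.56) and Hist4h4 at 258 ± 66.6 against 49.8 ± 16.8 CPM (2.38). One histone gene, Hist1h2bc, was higher in the villus and was named after its value was seen. Histone genes are near-identical copies, so the copy measured is uncertain. Lmnb1, which encodes a lamin of the nuclear envelope, was also among the 10 leading crypt genes, at 378 ± 94.3 against 65.7 ± 19.5 CPM (log2 difference 2.54).

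Ribosome biogenesis genes were higher in the crypt for 18 of 27 members and higher in the villus for none (median log2 difference 1.43). Fbl, the methyltransferase of ribosomal RNA, was at 1106 ± 181 against 341 ± 80.9 CPM (log2 difference 1.72), Nop56, its partner in box C/D particles, at 250 ± 68.8 against 64.5 ± 2.83 CPM (1.91), and Mybbp1a, a nucleolar regulator, at 201 ± 41.6 against 62.3 ± 22.2 CPM (1.73). The ribosomal proteins themselves were shifted less. Of 71 Rpl and Rps genes, 27 were called higher in the crypt, none higher in the villus, and the median log2 difference was 0.56. Only 5 and 7 of them were called without mouse 488 or mouse 490, and 17 with DESeq2 size factors, while between 64 and 69 stayed above 0 in every alternative run.

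**Figure D3:**
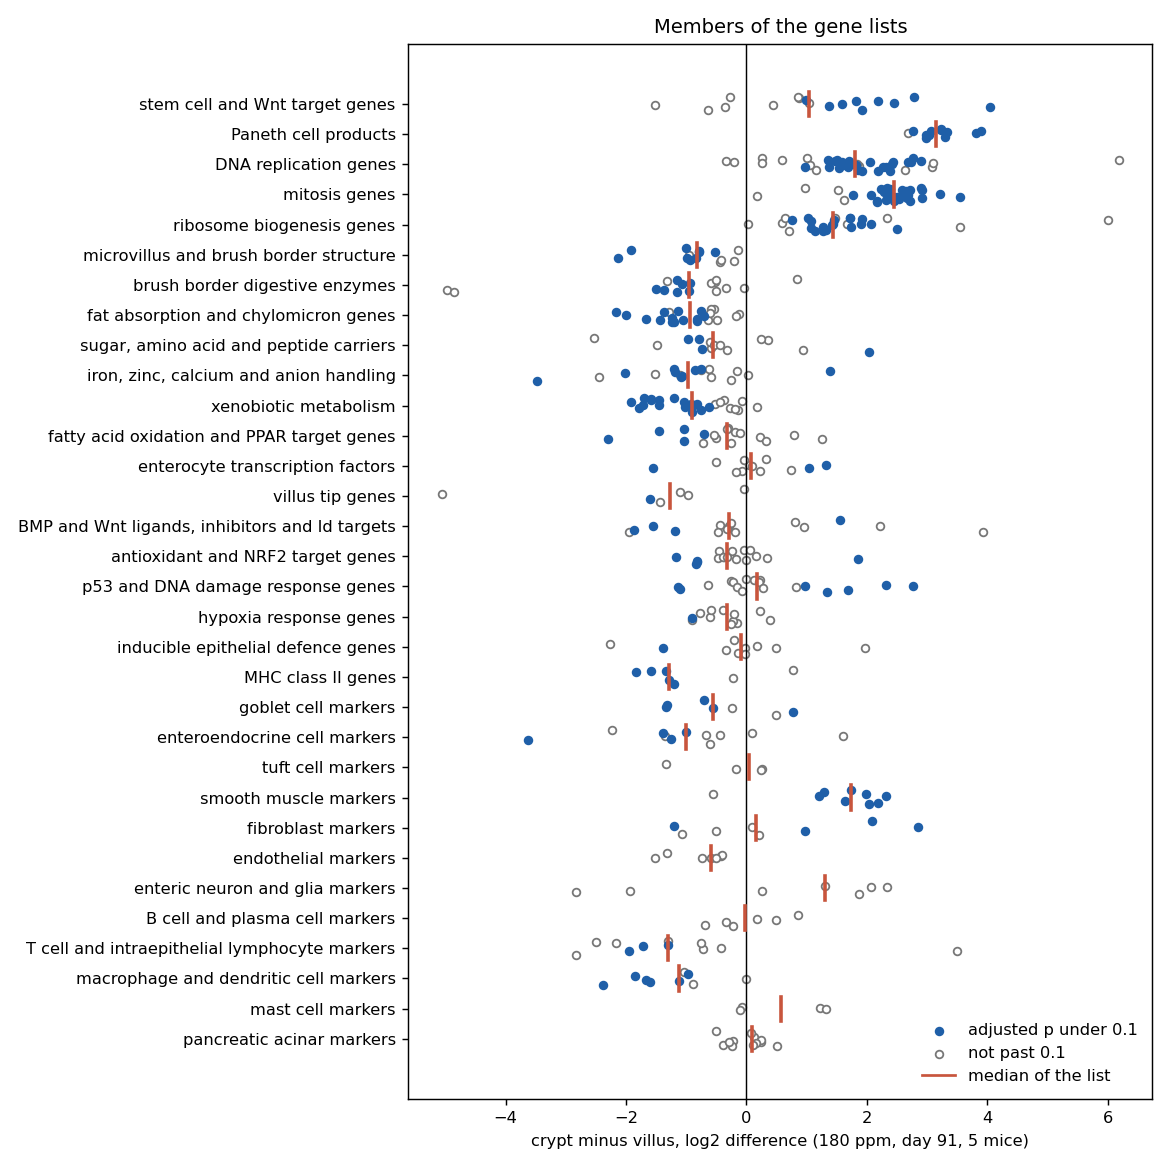
Log2 difference of crypt against villus for every measured member of the gene lists at 180 ppm and day 91, with called members filled and the median of each list as a bar. The Paneth, mitosis, replication and ribosome biogenesis lists lie to the crypt side with medians of 3.14, 2.45, 1.80 and 1.43, and the lists of enterocyte function lie to the villus side with medians between -0.96 and -0.32.

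On the villus side, structural genes of the microvillus and brush border were higher in the villus for 9 of 14 members and higher in the crypt for none (median log2 difference -0.81). Krt20, a keratin of mature enterocytes (chr11:99428403-99438150, minus strand, GRCm38), had 526, 307, 228, 543 and 681 CPM in the crypts and 1367, 951, 2396, 2694 and 2752 CPM in the villi. Every villus exceeded every crypt, and the log2 difference was -2.13 ± 0.27 (adjusted p = 5.27e-07). Pdzk1, a scaffold that holds carriers in the microvillus, was at 7.48 ± 8.23 against 27.6 ± 28.9 CPM, and its log2 difference of -1.91 (adjusted p = 0.0016) rested on the pairing within mice, since without the mouse as a block its adjusted p was 0.103. Vil1 was the most abundant member and is described above.

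Brush border digestive enzymes were higher in the villus for 7 of 17 members, and the other 10 did not pass the test (median log2 difference -0.95, or -0.68 with members at 0 in a group set to the detection limit). DESeq2 called 11 of the 17. Ggt1, gamma-glutamyltransferase, was at 444 ± 161 CPM in crypts and 1120 ± 331 CPM in villi (log2 difference -1.36), and Akp3, an intestinal alkaline phosphatase, at 431 ± 142 against 1225 ± 435 CPM (-1.50). Alpi, the main intestinal alkaline phosphatase and the most abundant member, was at 1364 ± 291 against 1950 ± 592 CPM, with a log2 difference of -0.50 ± 0.21 that did not pass the test (adjusted p = 0.139).

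Sequences before the start are shown for the 2 members of this list, Treh and Alpi, and the 2 of the xenobiotic list, Cyp3a11 and Cyp2c65, that hold a match to a form of the motif of the enterocyte factor HNF4 (CAAAGTCCA). They come from RefSeq (GRCm38.p6) and end at the base before the start, with HNF4 and TATA box (TATAAA) matches in capitals on either strand. Treh encodes trehalase, and the Cyp genes encode cytochrome P450 enzymes. The windows lie at chr9:44673083-44673232 (plus strand), chr1:87101607-87101756 (minus strand), chr5:145879855-145880004 (minus strand) and chr19:39060856-39061005 (plus strand).
Treh: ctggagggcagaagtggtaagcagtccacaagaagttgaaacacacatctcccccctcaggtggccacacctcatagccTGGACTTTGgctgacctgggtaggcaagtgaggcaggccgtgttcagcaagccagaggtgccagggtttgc
Alpi: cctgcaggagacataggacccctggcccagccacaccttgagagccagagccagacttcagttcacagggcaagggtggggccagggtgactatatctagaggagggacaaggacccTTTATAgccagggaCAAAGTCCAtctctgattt
Cyp3a11: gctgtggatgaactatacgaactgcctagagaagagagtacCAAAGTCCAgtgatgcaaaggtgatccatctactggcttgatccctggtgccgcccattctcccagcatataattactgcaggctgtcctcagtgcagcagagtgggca
Cyp2c65: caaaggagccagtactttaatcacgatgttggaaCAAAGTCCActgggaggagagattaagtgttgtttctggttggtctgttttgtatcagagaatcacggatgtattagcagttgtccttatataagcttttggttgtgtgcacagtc

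This HNF4 form was held by 14.3% of the enzyme promoters (2 of 14) and 8.33% of the xenobiotic promoters (2 of 24), by 0 of 16 fat absorption promoters, and, by comparison, by 0.482% of all tested genes, 1.38% of genes called higher in the villus and 0.306% of those called higher in the crypt. A TATA box was held by 16.5% of genes called higher in the villus, 5.82% of those called higher in the crypt and 7.65% of all tested genes. Treh, Cyp3a11 and Cyp2c65 were named for these sequences and after their values were seen. Treh was at 62.9 ± 23.9 CPM in crypts and 118 ± 35.0 CPM in villi (log2 difference -0.94, adjusted p = 0.0122), and Cyp2c65 at 538 ± 127 against 1254 ± 378 CPM (-1.20, adjusted p = 3.65e-05).

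Genes of fat absorption and chylomicron assembly lay to the villus side. Of 22 genes, 14 were higher in the villus, 8 did not pass the test and none was higher in the crypt (median log2 difference -0.94). The list's median within single mice, from ratios of CPM with 1 CPM added and not from the fit, ran only from -1.03 to -0.95. Fabp2, which carries fatty acids inside enterocytes, was at 22750, 9053, 6486, 20770 and 23890 CPM in the crypts and 49550, 16180, 30240, 49500 and 63790 CPM in the villi. The villus exceeded the crypt in 5 of 5 mice although the ranges overlapped, because mouse 484 was low in both compartments, and the log2 difference was -1.37 ± 0.25 (adjusted p = 2.34e-04).

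Apoa4 and Apoa1, neighbouring genes of chylomicron apolipoproteins on chromosome 9 (Apoa4 chr9:46240696-46243459 and Apoa1 chr9:46228580-46230466, both plus strand, GRCm38), differed widely between mice in both compartments. Apoa4 was at 1062, 225, 361, 1384 and 1235 CPM in the crypts against 3610, 1375, 1149, 6917 and 6879 CPM in the villi, a log2 difference of -2.17 ± 0.26 (adjusted p = 3.58e-07). Apoa1, named after its values were seen, was at 1858, 222, 273, 2983 and 2160 CPM against 4458, 863, 2083, 9933 and 9667 CPM, a log2 difference of -2.0 (adjusted p = 9.12e-07). Mice 484 and 485 had the lowest values of both genes in both compartments. Plin2, the coat protein of lipid droplets, was steadier, at 344, 198, 241, 316 and 281 CPM in the crypts and 872, 837, 1046, 740 and 856 CPM in the villi. Its groups were far apart, with a log2 difference of -1.67 ± 0.21 (adjusted p = 5.02e-07). Apoc2, a cofactor of lipoprotein lipase outside the list, was at 95.1 ± 40.8 against 347 ± 163 CPM (log2 difference -1.84).

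Carriers of sugars, amino acids and peptides were less uniform. Of 14 genes 3 were higher in the villus, 1 was higher in the crypt and 10 did not pass the test (median log2 difference -0.56), and the number higher in the villus ran from 0 (without mouse 484) to 7 (DESeq2, or all day 91 libraries) over the alternatives. Slc5a1, the sodium-glucose cotransporter and most abundant member, was at 642 ± 185 against 1008 ± 428 CPM, with a log2 difference of -0.59 ± 0.23 (adjusted p = 0.11). Slc6a19, which takes up neutral amino acids, was at 84.2 ± 21.4 against 139 ± 34.2 CPM (log2 difference -0.73, adjusted p = 0.0369), and Slc15a1, the peptide carrier, at 13.4 ± 5.96 against 27.2 ± 17.2 CPM (-0.96, adjusted p = 0.069). Slc6a19 was not called without mouse 484 (adjusted p = 0.124), nor Slc15a1 without mouse 483, 484 or 490 (0.227, 0.181 and 0.186). The member on the crypt side was Slc1a1, a glutamate carrier, at 45.1 ± 16.6 against 11.2 ± 6.82 CPM (2.04, adjusted p = 4.45e-04).

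Genes of iron, zinc, calcium and anion handling were higher in the villus for 8 of 18 members and higher in the crypt for 1 (median log2 difference -0.96), a count that ran from 4 to 13 over the alternatives. S100g, the calcium-binding protein calbindin-D9k, was at 602 ± 482 against 2462 ± 1743 CPM (log2 difference -2.02, adjusted p = 1.65e-06). The iron exporter ferroportin, Slc40a1, was at 111 ± 31.8 against 261 ± 84.2 CPM (-1.21), and Fth1, ferritin heavy chain, at 3362 ± 1561 against 6937 ± 2515 CPM (-1.07). Tfrc, the transferrin receptor by which dividing cells take up iron from blood, was the member higher in the crypt, at 419 ± 128 against 163 ± 54.7 CPM (1.38, adjusted p = 0.00304).

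Xenobiotic metabolism genes were higher in the villus for 17 of 25 members and higher in the crypt for none (median log2 difference -0.90). Gsta1, a glutathione transferase and the most abundant member, was at 2755 ± 770 against 5195 ± 1415 CPM (log2 difference -0.92, adjusted p = 0.00328). Ces2c, a carboxylesterase, was at 697 ± 423 against 2055 ± 1228 CPM (-1.58), and Cyp3a13 at 90.7 ± 44.6 against 294 ± 139 CPM (-1.72). Cyp3a11 was at 34.5, 0.956, 10.4, 175 and 83.7 CPM in the crypts and at 116, 5.28, 23.6, 554 and 506 CPM in the villi (-1.91 ± 0.33, adjusted p = 6.80e-05). It was higher in the villus of each mouse while spanning a far wider range between mice than between compartments. The Ces2 and Cyp3a families contain close copies, so the member measured is uncertain.

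For fatty acid oxidation and targets of the lipid sensor PPAR alpha, 5 of 17 members were higher in the villus and 12 did not pass the test (median log2 difference -0.32). DESeq2 called 8. Creb3l3, a membrane-bound factor of lipid metabolism, was at 729 ± 231 against 1485 ± 371 CPM (log2 difference -1.04). Acaa2, a mitochondrial thiolase and the most abundant member, was at 1168 ± 471 against 1612 ± 437 CPM (-0.51, adjusted p = 0.195).

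Other genes led the villus side by adjusted p without belonging to enterocyte lists. Gpnmb, a glycoprotein of phagocytes, was at 10.8 ± 6.65 CPM in crypts and 151 ± 68.1 CPM in villi (log2 difference -3.74 ± 0.42, adjusted p = 7.60e-08). Mpeg1, perforin-2 of macrophages, was at 240, 146, 160, 258 and 188 CPM in the crypts and 578, 771, 1067, 732 and 848 CPM in the villi (-2.02 ± 0.22), with every villus above every crypt. Il1rl1, the receptor of interleukin-33, was at 22.8 ± 9.43 against 299 ± 227 CPM.

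Of the remaining leading villus genes, Fgf7, a stromal growth factor for epithelium, was at 18.2 ± 4.79 against 133 ± 62.1 CPM, and Col6a4, a collagen chain, at 19.0 ± 3.89 against 101 ± 18.1 CPM. Ctse, the protease cathepsin E, was at 14.8 ± 7.84 against 106 ± 66.3 CPM, and Tubb2a, a tubulin, at 22.9 ± 3.20 against 142 ± 61.5 CPM. Their log2 differences were -2.76, -2.39, -2.82 and -2.53.

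Transcription factors of the enterocyte did not move as a group: 2 of 12 were higher in the crypt, 1 was higher in the villus and 9 did not pass the test. The median log2 difference was 0.07, and -0.04 with DESeq2 size factors. Cdx1, a homeobox factor of intestinal identity, was at 65.7 ± 5.07 against 26.5 ± 8.51 CPM (1.31, adjusted p = 0.00185). Its relative Cdx2 was at 51.3 ± 8.06 against 26.1 ± 14.6 CPM (1.04, adjusted p = 0.0338), a call lost without any one of mice 483, 484, 485 and 490. Hnf4g, the most abundant member, was at 480 ± 147 against 515 ± 180 CPM (-0.07, adjusted p = 0.912), and its sign turned without mouse 485. Klf4 was the factor higher in the villus.

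Among genes known from the villus tip, 1 of 6 was called, Fos, an immediate early factor, at 14.9 ± 3.76 against 47.0 ± 16.1 CPM (-1.61). Of 15 ligands, inhibitors and targets of the BMP and Wnt pathways, which oppose each other along the crypt axis, 3 were higher in the villus and 1 in the crypt (median log2 difference -0.29). Bmp2 was at 16.3 ± 3.21 against 62.3 ± 21.8 CPM (-1.87) and Bmp4 at 16.0 ± 6.19 against 46.6 ± 11.1 CPM (-1.56). Both are ligands that promote differentiation. Sfrp1, a secreted Wnt inhibitor, was at 19.2 ± 4.21 against 6.36 ± 5.10 CPM (1.55, adjusted p = 0.0328) and lost its call without mouse 484, 485 or 488. Id3, a BMP target and the most abundant member, was at 47.5 ± 14.3 against 65.7 ± 16.9 CPM (-0.48, adjusted p = 0.317).

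Antioxidant and NRF2 target genes were mixed, with 1 of 17 higher in the crypt, 4 higher in the villus and 12 not called (median log2 difference -0.32). Gpx2, the epithelial glutathione peroxidase, was at 447 ± 164 against 133 ± 68.0 CPM (1.85, adjusted p = 1.60e-05), while Sqstm1, an autophagy receptor, was at 34.4 ± 11.2 against 76.5 ± 14.4 CPM (-1.17) and Cat, catalase, at 166 ± 66.6 against 302 ± 150 CPM (-0.81). Gsr, glutathione reductase and the most abundant member, was at 1543 ± 344 against 1221 ± 291 CPM (0.34, adjusted p = 0.377).

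Of 18 genes of the p53 and DNA damage response, 5 were higher in the crypt, 2 were higher in the villus and 11 did not pass the test (median log2 difference 0.17). On the crypt side, Brca1, which repairs breaks by recombination in cycling cells, was at 19.7 ± 5.39 against 3.83 ± 3.23 CPM (log2 difference 2.32). Those on the villus side were targets of p53: Cdkn1a, the inhibitor p21 of the cell cycle, at 23.4 ± 7.38 against 52.8 ± 20.5 CPM (-1.14, adjusted p = 0.0436), and Mdm2, at 22.6 ± 10 against 47.4 ± 13.7 CPM (-1.10, adjusted p = 0.032). Cdkn1a was not called without mouse 484 (adjusted p = 0.219) or 488 (0.108), nor Mdm2 without mouse 485 (0.130). Gadd45a, the most abundant member, was at 227 ± 128 against 247 ± 64.5 CPM (-0.25, adjusted p = 0.578).

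Hypoxia response genes had 1 call of 12, Hif1a, the oxygen-regulated factor, at 158 ± 50.4 against 292 ± 61.7 CPM (-0.91), with Ldha, lactate dehydrogenase, at 1257 ± 244 against 1459 ± 199 CPM (-0.23, adjusted p = 0.534). Inducible defence genes of the epithelium had 1 call of 10, Reg1, a secreted lectin-like protein, at 1256 ± 518 against 3243 ± 1621 CPM (-1.39). Among all genes 5.74% were called higher in the villus, so 1 call of 12 or of 10 does not set either list apart. MHC class II genes, which present antigen and are made by antigen-presenting cells and by villus enterocytes, were higher in the villus for 5 of 7 members (median log2 difference -1.29). Cd74, the invariant chain, was at 232 ± 43.6 against 566 ± 96.6 CPM (-1.29), and H2-Ab1 at 71.9 ± 16.9 against 182 ± 45.0 CPM (-1.33). The sum of the class II list was 387 to 580 CPM in crypts and 1059 to 1455 CPM in villi, without overlap.

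Markers of other cell types were distributed unevenly between the compartments. Goblet cell markers were higher in the villus for 4 of 7 members and higher in the crypt for 1. Zg16, a lectin of mucus granules, was at 1785 ± 585 against 4456 ± 1326 CPM (log2 difference -1.32), and Clca1, a mucus-processing protease, at 273 ± 96.5 against 708 ± 282 CPM (-1.34). Spink4, a peptide of secretory cells, was at 504 ± 194 against 306 ± 175 CPM (0.77, adjusted p = 0.0155) and was not called without the mouse as a block (adjusted p = 0.190) or without mouse 485 (0.137), 488 (0.129) or 490 (0.156). Enteroendocrine markers were higher in the villus for 4 of 11 members, among them the hormones Gip, at 36.6 ± 13.7 against 84.5 ± 13.6 CPM (-1.25), and Sct, secretin, at 16.3 ± 9.89 against 42.4 ± 18.1 CPM (-1.39). None of 4 tuft cell markers and not the 1 Brunner gland marker was called.

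Smooth muscle moved with the crypt. Of 9 markers 8 were higher in the crypt (median log2 difference 1.73), and their sum was 1019 to 1955 CPM in crypts and 350 to 534 CPM in villi. Myl9 was at 320 ± 62.9 against 73.6 ± 34.2 CPM (2.18), Cnn1 at 103 ± 53.4 against 23.4 ± 8.67 CPM (2.04) and Tagln at 414 ± 144 against 174 ± 20.8 CPM (1.20). All encode proteins of the contractile apparatus. Fibroblast markers split, with 3 of 8 higher in the crypt, among them the matrix genes Dpt, at 136 ± 31.5 against 33.9 ± 19.9 CPM (2.08), and Lum, at 19.8 ± 6.18 against 2.60 ± 2.33 CPM (2.85). Pdgfra, the receptor that marks subepithelial fibroblasts, was higher in the villus, at 69.1 ± 10.4 against 164 ± 49.6 CPM (-1.20), and Col1a1, the most abundant member, stood at 199 ± 31.4 against 173 ± 29.6 CPM (0.20, adjusted p = 0.738).

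Macrophage and dendritic cell markers were higher in the villus for 6 of 9 members and higher in the crypt for none (median log2 difference -1.12), although 3 were called without mouse 490. Lyz2, the lysozyme of phagocytes, was at 18.8 ± 8.06 against 101 ± 36.9 CPM (-2.38), Csf1r, the receptor for macrophage growth factor, at 21.0 ± 4.55 against 76.6 ± 19.8 CPM (-1.84), and C1qb, of complement, at 56.9 ± 8.41 against 113 ± 27.5 CPM (-0.97). The sum of the list was 120 to 146 CPM in crypts and 234 to 499 CPM in villi. Markers of T cells and intraepithelial lymphocytes summed to 42.0 to 70.8 CPM in crypts and 103 to 228 CPM in villi, with 3 of 11 higher in the villus, among them Gzma, granzyme A, at 20.7 ± 2.96 against 54.0 ± 28.3 CPM (-1.30), and Cd3g, of the T cell receptor complex, at 2.85 ± 0.913 against 9.55 ± 4.35 CPM (-1.71, adjusted p = 0.0797), a call lost in 8 alternatives. The part of these markers in the villus-side differences of Gpnmb and Mpeg1 was not tested.

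None of 6 markers of B cells and plasma cells was called, nor any of 7 endothelial, 7 enteric neuron and glia or 4 mast cell markers. Jchain, the joining chain of secreted antibodies, was at 1507 ± 560 against 1938 ± 775 CPM (-0.33, adjusted p = 0.47). The summed mast cell markers varied more by mouse than by compartment, from 87.6 to 454 CPM in crypts and 101 to 464 CPM in villi. Erythroid markers did not pass the filter on low values and summed to no more than 2.33 CPM.

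Pancreatic acinar markers, from an organ that adjoins the duodenum, varied without regard to compartment in these 10 libraries. Their sum was 23050, 4901, 17970, 6.50 and 3988 CPM in the crypts of the 5 mice and 70.5, 43330, 73240, 45.5 and 1488 CPM in the villi. The crypt was higher in mice 483 and 490 and the villus in mice 484, 485 and 488, and none of the 12 markers was called. Untreated libraries of day 91 ranged as widely, from 6.88 to 145100 CPM in the crypts. The villus of mouse 485 had the highest of these 10 sums, and leaving out that mouse moved the number of genes called from 2173 to 2253.

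**Figure D4:**
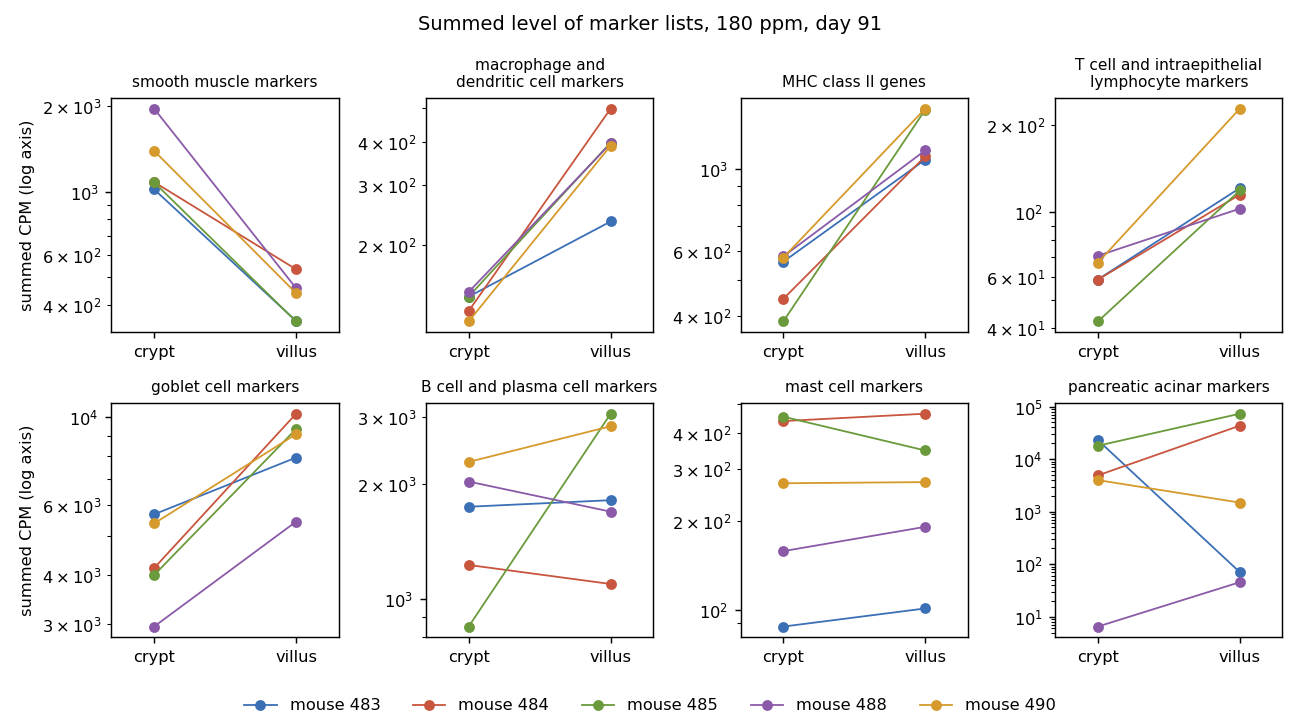
Summed CPM on a log axis of marker lists of other cell types in the crypt and villus libraries of the 5 mice, with points joined within a mouse. Smooth muscle sums lie at 1019 to 1955 CPM in crypts and 350 to 534 CPM in villi, macrophage, T cell and MHC class II sums lie higher in every villus than in any crypt, and the pancreatic acinar sums spread from 6.50 to 73240 CPM with no common direction.

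The second question was whether this crypt and villus difference was the same in untreated mice of day 91. The change of the difference, 180 ppm minus 0 ppm, was called for 34 of 13416 genes (0.253%), 2 upward and 32 downward, and 1345 probes had an unadjusted p under 0.05. A downward change means that a gene lay more to the villus side at 180 ppm. Called genes numbered 7 without untreated mouse 5 and 108 without untreated mouse 7. The untreated villus libraries were the smallest of those compared, and with all libraries thinned to 1 total 32 genes were called. Counted by their most abundant probe, 27 of 31 called genes kept their call under thinning, 20 without the mouse as a block and 7 without mouse 5, and all 31 kept their sign. At their own threshold, the untreated mice separated the compartments by 2002 genes with 1 probe per gene, of which 1061 were also called at 180 ppm (51.5% of the genes called at 180 ppm and 53% of those called in untreated mice), 1054 in the same direction.

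Igfbp3, which binds insulin-like growth factors (chr11:7206086-7213923, minus strand, GRCm38), had the smallest adjusted p. It was at 56.3, 32.0, 17.2, 80.6 and 69.4 CPM in the crypts at 180 ppm and 200, 143, 217, 227 and 172 CPM in the villi, with no overlap. Untreated crypts had 191 ± 60.0 CPM (n = 5) and untreated villi 127 ± 66.7 CPM (n = 4), the opposite order, and the difference changed by -2.77 ± 0.43 on the log2 scale (adjusted p = 0.00424). At 180 ppm the 5 within-mouse differences lay between -3.56 and -1.26, and in untreated mice between -0.06 and 1.94.

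For Plin2 and Fgf7 the larger gap between concentrations was in the villus. Plin2 was at 276 ± 58.4 CPM in crypts and 870 ± 111 CPM in villi at 180 ppm, against 216 ± 24.0 and 210 ± 73.2 CPM at 0 ppm, a change of -1.83 ± 0.31 (adjusted p = 0.00794). For Fgf7 the untreated values were 19.8 ± 5.88 CPM in crypts and 12.5 ± 11.5 CPM in villi, near its crypt level at 180 ppm, a change of -3.43 ± 0.61 (adjusted p = 0.00951). Htra1, a secreted serine protease, was at 62.1 ± 20.0 against 228 ± 69.8 CPM at 180 ppm and 38 ± 6.40 against 25.4 ± 11.4 CPM at 0 ppm (-2.57 ± 0.46). The macrophage gene Mpeg1 had 253 ± 54.2 and 276 ± 42.0 CPM in untreated crypts and villi (-1.83 ± 0.33, adjusted p = 0.0102).

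Gmds, an enzyme of GDP-fucose synthesis, had a difference that narrowed rather than widened, with a higher mean in both compartments at 180 ppm than at 0 ppm. It was at 444 ± 115 against 322 ± 108 CPM at 180 ppm and at 183 ± 51.5 against 28.2 ± 23.3 CPM at 0 ppm, a change of -2.36 ± 0.41 (adjusted p = 0.00794). Osbpl1a, an oxysterol-binding protein gene, was one of the 2 upward changes, at 13.2 ± 4.84 against 10.3 ± 3.97 CPM at 180 ppm and 15.0 ± 4.98 against 84.5 ± 35.7 CPM at 0 ppm (2.68 ± 0.56, adjusted p = 0.0368). It was not called without mouse 3, 5 or 488 (adjusted p = 0.140, 0.137 and 0.101). The other was Slc19a1, the reduced folate carrier, through a probe that is not its most abundant one.

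Other called genes of the villus side at 180 ppm included Pdgfra, Lyz2, Tyrobp, Psap and Mmp2, chosen after their values were seen. Of the listed markers, only 1 of 9 macrophage and dendritic cell genes (Lyz2) and 1 of 8 fibroblast genes (Pdgfra) were called in this comparison. Pdgfra stood at 69.4 ± 25.4 CPM in the untreated crypt and 25.6 ± 12.0 CPM in the untreated villus, so that its side turned from the crypt to the villus. It was not called without mouse 5 (adjusted p = 0.104). Lyz2 was not called without the mouse as a block (0.263) or without mouse 3, 5, 484, 485 or 490, Psap without the block (0.108) or without mouse 3, 5 or 6, Tyrobp without mouse 3, 5 or 484, and Mmp2 without mouse 3, 5, 6, 484 or 485. Adora2a and Sox5 were at 0 in all untreated villi and at 26.1 and 16.1 CPM in the villi at 180 ppm. Of 129 immunoglobulin variable genes, whose near-identical copies leave the member uncertain, 5 were called, and 4 of these 5 were not called without the mouse as a block (adjusted p = 0.359 to 0.548). The macrophage list summed to 158 to 196 CPM in the crypts of untreated mice and 143 to 270 CPM in their villi, beside 120 to 146 and 234 to 499 CPM at 180 ppm. Its part in the change of Mpeg1, Lyz2 and Tyrobp was not tested.

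Of the ribosomal protein genes, 3 of 71 were called in this comparison. The number called was 0 without mouse 5, without mouse 6, or without mice 483 and 485 together, and 19 with all day 91 libraries, 21 with DESeq2 and 22 without mouse 7. The fitted change lay under 0 for 70 of 71, with a median of -0.97 on the log2 scale beside -0.15 for all probes. It lay under 0 for 67 to 71 of them in every alternative run, with a median of -0.87 beside -0.05 under DESeq2 size factors. Rpl13 was at 372 ± 20.6 against 251 ± 77.3 CPM at 180 ppm and at 256 ± 60.5 against 58.9 ± 17.1 CPM at 0 ppm. Rps12 was at 1112 ± 165 against 833 ± 388 CPM and at 601 ± 124 against 135 ± 79.3 CPM. Their changes were -1.60 and -1.72, and the untreated villi were the low group in both. The totals of the untreated villus libraries were also the lowest, and the part of depth in these values was not tested beyond the thinned counts, under which 68 of 70 lay under 0 with a median of -0.95.

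The intermediate concentrations of day 91 gave the same genes a course, each point being the median over mice of the within-mouse log2 difference with 1 CPM added. Igfbp3 had medians of 0.68, -0.19, 0.02, 0.02, -0.97, -1.46 and -1.79 at 0, 0.1, 1.4, 5, 20, 60 and 180 ppm. Plin2 had medians of 0.27, -0.18, -0.13, 0.02, -1.14, -1.33 and -1.57. In both, all 5 mice were under 0 at each of 20, 60 and 180 ppm. Fgf7 had medians of 0.60, 0.03, -0.55, -1.06, -2.08, -2.02 and -2.88, and Mpeg1 of -0.18, -0.61, -0.69, -0.98, -1.11, -1.59 and -2.13. As the genes were chosen at the ends of this range, the points at 0 and 180 ppm are no test, and the points between them are given as a description.

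**Figure D5:**
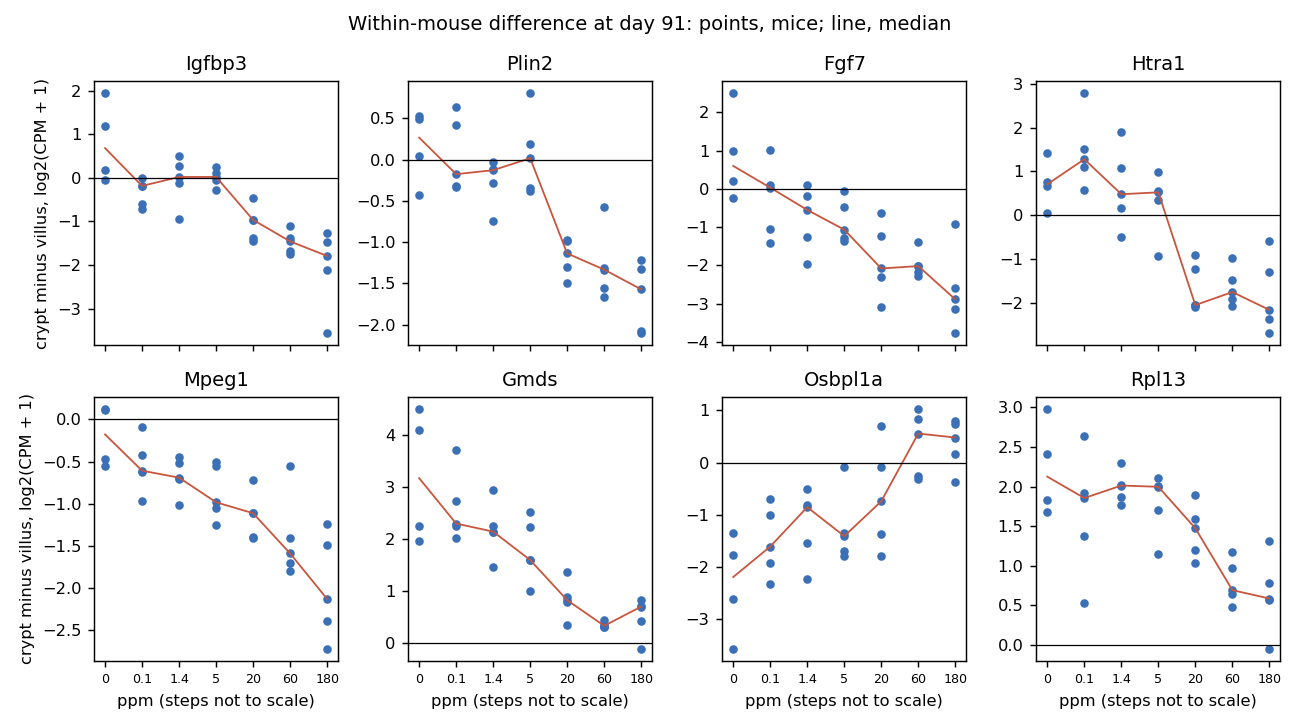
Within-mouse log2 difference of crypt against villus on day 91 at each of 7 Cr(VI) concentrations for genes called in the comparison of 180 ppm with 0 ppm, with 1 point per mouse and a line through the medians. The medians of Igfbp3 and Plin2 lie between -0.19 and 0.02 from 0.1 to 5 ppm, and all 5 mice lie below 0 from 20 ppm, and the line of Fgf7 runs from 0.60 at 0 ppm to -2.88 at 180 ppm.

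The last comparison asked whether the difference at 180 ppm changed between day 8 and day 91. No gene was called (0%) by edgeR's quasi-likelihood test, with a smallest adjusted p of 0.163, and 1002 probes had an unadjusted p under 0.05. DESeq2 called 67 genes, and edgeR called 40 without mouse 483, so the absence of calls does not show that the days were alike. On day 8, 1658 genes with 1 probe per gene were called between crypt and villus, of which 1002 were also called on day 91 (48.6% of the genes called on day 91 and 60.4% of those called on day 8), 999 in the same direction. Plin2 had 144 ± 34.1 CPM in crypts (n = 5) and 489 ± 75.3 CPM in villi (n = 4) on day 8, and its change between days was 0.01 on the log2 scale. For Igfbp3 the values were 33.7 ± 7.89 and 52.9 ± 18.1 CPM on day 8, and the change was -1.29.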

How the data were processed

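The deposited table holds raw counts, which the authors made per probe from TempO-Seq reads; per the labels' processing notes, bcl2fastq 2.17.1.14 and Bowtie were used, and the genome build is not given in the sources used here. All 30146 probes (21450 genes) were read, without normalization by the authors. Libraries were grouped by compartment, concentration and day from the labels and paired by the animal number in the titles. One model of 28 libraries was fitted with edgeR 4.0.16 (quasi-likelihood test, TMM, filterByExpr, Benjamini-Hochberg adjustment over all probes, adjusted p under 0.1) in R 4.3.3, with the mouse as a block and a crypt against villus difference for each set of mice. Deviations from group means correlated within mice at a median of 0.22 (range -0.18 to 0.38), against -0.05 between mice (range -0.49 to 0.50). With 5 pairs an exact permutation test cannot go below p = 0.0625, so single genes rest on the model. Nothing says that sections were prepared independently beyond the animal. A gene is given by its probe with the highest total count.

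The scripts were tested on simulated data. The comparison, its markers and the gene lists were chosen with earlier results of these data known, so no list was tested. Named genes were the study's 8 markers, the 10 genes with the smallest adjusted p on each side without overlap between compartments, the most abundant member and the 2 members with the smallest adjusted p on each side in every list, and the 6 genes with the smallest adjusted p on each side in each comparison between groups. Alternatives were DESeq2 1.42.0, other scalings, filters, sets of libraries, summed probes, thinned counts and each mouse left out. Gene positions are from GENCODE M21. Some genes that this rule names are not reported here. Limits of detection cover counting error only.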

Additional observations from a re-analysis of the deposited data

Results flagged for a closer look

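In 322 groups of 5 libraries looked at, 20 had 1 library apart from the other 4 by Dixon's criterion, where chance sets about 1 group in 20 apart. In the crypts these were Klf4 in mouse 485 (49.2 CPM), and in mouse 488 Alpi (856 CPM), Bmp4 (26.7 CPM), Ldha (834 CPM), Tagln (665 CPM) and Osbpl1a (21.7 CPM). In the villi they were Defa30 (575 CPM), Defa23 (178 CPM), Spink4 (610 CPM), Myl9 (133 CPM) and the immunoglobulin gene Igkv19-93 (396 CPM) in mouse 484, Bmp2 (25.7 CPM) and Htra1 (107 CPM) in mouse 483, Sct in mouse 488 (10.7 CPM) and Gzma in mouse 490 (103 CPM). Summed lists set apart were the stem cell and Wnt target genes in the crypt of mouse 484 (1739 CPM), the tuft cell markers in the crypt of mouse 488 (57.1 CPM), the T cell markers in the villus of mouse 490 (228 CPM), and the single Brunner gland marker in the crypt (6.99 CPM) and villus (0.467 CPM) of mouse 483, the other libraries of which were at 0.

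The crypt against villus difference at 180 ppm differed from that of untreated mice on day 91 by the test of the difference itself for the 30 genes given here by their most abundant probe. Of these 30, 6 kept their call in every alternative run (Igfbp3, Gmds, Plin2, Fgf7, Htra1 and Mpeg1) and the others lost it in at least 1. Beside Igfbp3 (-2.77 on the log2 scale), Gmds (-2.36), Plin2 (-1.83), Fgf7 (-3.43), Htra1 (-2.57), Mpeg1 (-1.83) and Osbpl1a (2.68), these were the stromal genes Pdgfra (-2.57), Emilin1 (-1.79), Col6a2 (-1.95) and Mmp2 (-2.01), and the phagocyte-associated genes Tyrobp (-1.69), Fabp5 (-2.25), Psap (-1.52) and Lyz2 (-2.62). Translation genes were Rpl13 (-1.60), Rps12 (-1.72) and Eef1a1 (-1.26). Immunoglobulin genes were Igkv15-103 (-3.84), Igkv12-44 (-1.98), Igkv12-46 (-1.92), Igkv19-93 (-2.77) and Ighv1-31 (-2.12). The rest were Rbms3 (-4.54), Gbp2 (-3.26), Fabp5 (-2.25), Psap (-1.52), Taf1d (-1.66), Thbd (-3.00), Ppia (-1.28), and Adora2a and Sox5, whose villi at 180 ppm had 26.1 and 16.1 CPM against 0 in every untreated villus.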

How the results depend on the processing

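The number of genes called between crypt and villus at 180 ppm was 2173, and 2020 with no mouse block or other pairing term. It was 1316 with the legacy form of the fit, ran from 1327 (without mouse 490) to 2253 (without mouse 485) with 1 mouse left out, and was 1435 without mouse 488. Under the other alternatives it lay between 1758 and 3020. The change of the difference against untreated mice was called for 34 genes, for 27 with no mouse block, 192 with all day 91 libraries, 56 with all libraries of the series, 130 with no filter beyond 1 count, 53 with a mean count of at least 10, 72 with summed probes and 454 with DESeq2, and for 7 to 108 with 1 mouse left out (22 without mouse 484). Against day 8 the count was 0 with and without the block and 0 to 40 with 1 mouse left out (40 without mouse 483, 1 without mouse 526), 67 with DESeq2, 76 with no filter, 4 with summed probes, 1 with the legacy form, 1 with all libraries and 7 without mice 483 and 485, an alternative chosen after seeing the data because the deviations of their compartments correlated below 0. Of 90 named called genes, 76 kept their call in every alternative and 14 lost it in at least 1, whereas of 30 genes called against untreated mice 6 kept it in every alternative. Signs turned for Hnf4g, which ran from -0.31 to 0.11 with 1 mouse left out (above 0 without mouse 485) and was 0.085 without mice 483 and 485, and for Col1a1 without both (-0.031). Medians near 0 turned too. That of the enterocyte transcription factors turned with DESeq2 size factors (-0.038) and 8 other alternatives (lowest -0.093). The p53 median turned in 4 alternatives, among them DESeq2 (-0.033) and the run without mouse 485 (-0.14). For the defence list it turned in 1, the legacy form (0.030). The B cell median turned in 2 (highest 0.10), among them the run without mouse 485 (0.088). That of fibroblasts turned in 3 (lowest -0.14), among them the run without mouse 488 (-0.016). The tuft cell and pancreatic medians turned under most. With size factors the fat absorption and hypoxia medians moved to -1.04 and -0.44. Goblet cell members higher in the villus fell to 2 with no mouse block. The cause of these shifts was not tested. Depth limits what can be said of genes near 1 CPM, among them Lgr5 and Defa5.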
